A study of Mus musculus with 60 samples.

Results

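The 5 genes described here were the adult globin genes Hba-a1, Hba-a2, Hbb-bs and Hbb-bt and the heme synthesis enzyme gene Alas2, which were taken by name from a table of 55414 genes. They were chosen with their levels across the groups of this study known, so their differences between groups and fractions are given as a description, with standard errors and no test. The series held 60 RNA-seq libraries of mPFC from DBA2/J mice with the transgenic protein GFP-L10a, which is L10a of the large ribosomal subunit fused to green fluorescent protein. For the IP libraries an anti-GFP antibody was used to isolate the tagged ribosomes with their RNA, and the labels give their cell type as aPVT projector. The Input libraries, labelled as bulk mPFC, had no antibody step and hold RNA of every cell type in the sample. The design text states 5 days of social defeat stress and 5 groups, which the labels write as NS, RES, ANH, SA and SA:ANH and do not spell out. Each group had 6 IP and 6 Input libraries, and NS served as the reference. The labels give no age or sex of the mice, no promoter or virus behind the tagged protein, and no link between libraries and individual animals.

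Adult hemoglobin joins a pair of alpha chains, encoded in mice by Hba-a1 and Hba-a2, with a pair of beta chains, and each chain holds a heme. Alas2 encodes the erythroid form of 5-aminolevulinate synthase, the rate-limiting first step of heme synthesis in red cell precursors, while Alas1 encodes the form used by other cells. Globin messenger RNA persists in reticulocytes, the young red cells that circulate without a nucleus, so brain tissue that still holds blood carries it, and low globin transcription by neurons and glia has also been described. In bulk tissue a larger number of red cells and more globin RNA per red cell cannot be told apart.

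In the deposited table Hba-a1 (ENSMUSG00000069919.8) lies on chromosome 11 from 32233511 to 32234465, and Hba-a2 (ENSMUSG00000069917.8) on the same strand from 32246489 to 32247298. Hbb-bs (ENSMUSG00000052305.7) and Hbb-bt (ENSMUSG00000073940.4) lie on the minus strand of chromosome 7, from 103475741 to 103477303 and from 103461731 to 103463203. Alas2 (ENSMUSG00000025270.14) lies on the X chromosome from 149330371 to 149353634. Those positions are the table's own: of 38883 genes matched by symbol to RefSeq on GRCm38.p6, 0.756% had the same start, so the sequences below carry GRCm38 positions of their own and were matched by gene name.

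The globin rows come in near-identical pairs, which limits how reads can be shared out between them. The coding sequences of Hba-a1 and Hba-a2 in GENCODE M21 were identical at 425 of 426 bases, and those of Hbb-bs and Hbb-bt at 440 of 441. The lines give the 61 coding bases around each difference, with the differing base in capitals, from chr11:32284313-32284373 and chr11:32297130-32297190 on the plus strand and from chr7:103826668-103826728 and chr7:103812659-103812719 on the minus strand of GRCm38.
Hba-a1: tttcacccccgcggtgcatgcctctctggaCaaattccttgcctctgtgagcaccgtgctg
Hba-a2: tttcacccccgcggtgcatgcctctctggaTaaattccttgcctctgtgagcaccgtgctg
Hbb-bs: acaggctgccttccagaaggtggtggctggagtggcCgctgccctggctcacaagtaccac
Hbb-bt: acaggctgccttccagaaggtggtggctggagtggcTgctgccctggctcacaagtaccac
Counted from the first coding base, the differences are C381T between Hba-a1 and Hba-a2 and C417T between Hbb-bs and Hbb-bt. The longest stretches that the pairs share are 380 and 416 bases, against reads of 100 bases. A coding read that does not cover the difference therefore cannot be placed by its own bases in either row of its pair. Reads came in pairs, so a mate that covers the difference or lies outside the coding bases could still place it. The reference strain carries Hbb-bs and Hbb-bt, whereas DBA/2 mice are known to carry the diffuse beta-globin haplotype with other gene copies, and the table has no row of those names. The sum of a pair is therefore used for the balance of alpha and beta counts, and every value of a single row, per kilobase or not, carries an uncertain split within its pair. The sum does not recover reads dropped for mapping to both rows, or reads of other gene copies that did not match the reference. Such losses could differ between alpha and beta, so the balance of counts is not a measure of the balance of chains.

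The members share promoter features that played no part in their choice. RefSeq promoter windows on GRCm38.p6 were found for 5 of 5 members, and the Hba-a1 and Hba-a2 windows were identical over 297 of 297 overlapping bases, shifted by 3, while those of Hbb-bs and Hbb-bt matched at 168 of 299. The lines give the exon-free bases nearest the start of Hba-a2 (chr11:32296369-32296488, plus strand), Hbb-bs (chr7:103827929-103828011, minus strand), Hbb-bt (chr7:103813997-103814116, minus strand) and Alas2 (chrX:150547255-150547374, plus strand), with motif matches in capitals.
Hba-a2: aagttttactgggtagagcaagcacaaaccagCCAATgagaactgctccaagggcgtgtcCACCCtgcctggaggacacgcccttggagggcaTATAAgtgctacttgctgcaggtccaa
Hbb-bs: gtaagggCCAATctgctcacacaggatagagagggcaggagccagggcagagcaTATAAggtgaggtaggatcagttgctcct
Hbb-bt: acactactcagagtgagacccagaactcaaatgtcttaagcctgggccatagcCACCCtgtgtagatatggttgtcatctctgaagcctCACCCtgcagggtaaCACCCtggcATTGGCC
Alas2: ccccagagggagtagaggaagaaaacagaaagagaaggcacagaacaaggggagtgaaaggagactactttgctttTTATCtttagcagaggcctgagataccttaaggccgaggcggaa
Short motifs were searched on both strands, so a capital run may be the reverse complement of the motif named. Matches can touch or overlap: the last capitals of the Hbb-bt line are a CCAAT on the minus strand that abuts the first bases of one on the plus strand, and the pair of TATAA matches in Alas2, outside the printed stretch, overlap on opposite strands. In the 250 bases before the start, GATAA, the core read by GATA factors, occurred in 5 of 5 members and in 22.6% of all 32851 RefSeq promoter windows. CACCC, the core read by factors of the Klf family, occurred in 5 of 5 members and in 52.0% of windows. CCAAT occurred in the 4 globins and in 33.8% of windows, and TATAA in 5 of 5 members and in 22.8% of windows. The TATAA match lay 30 to 26 bases before the start in Hba-a2 and 29 to 25 in Hbb-bs, against 208 to 204 in Alas2. Since 2 of the members have the same promoter and the motifs are short, these shares are a description of the letters in the windows.

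Library totals ran from 19078928 to 27073456 counts, and no 2 libraries of a group agreed within sampling noise (chi-square per degree of freedom between 7.02 and 23.2 over 150 pairs). The 12 of 12 listed excitatory neuron markers were detected in every group, which shows neuronal tissue and does not single out mPFC. Their summed level was 8058 to 10128 CPM (read counts scaled to a common library size, with TMM factors) in IP and 6042 to 6564 CPM in Input. The list includes Rbfox3 and Snap25, which are not limited to excitatory neurons, and Snap25 alone was at 3463 CPM in NS IP. All 5 members passed the filter on low counts in both fractions. Alas2 passed in IP only through the groups where it was detected, so its IP counts are given as counts, with no fitted value.

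In Input, globin and Alas2 RNA stood higher in RES, ANH, SA and SA:ANH than in NS. The 4 globins together ran from 862 to 933 CPM in NS (median 903), from 1170 to 1390 in RES (median 1267), from 1483 to 1571 in ANH (median 1524), from 1434 to 1600 in SA:ANH (median 1523) and from 1449 to 1614 in SA (median 1548). NS was the lowest group and RES the next, and neither overlapped its neighbours in that order, while SA, SA:ANH and ANH overlapped each other. All 24 libraries of the other groups lay above every NS library. The mean globin sum was 1.41 times that of NS in RES and 1.70, 1.70 and 1.72 times in ANH, SA:ANH and SA. Alpha and beta sums gave nearly the same folds, 1.73 and 1.70 in SA and 1.42 and 1.39 in RES.

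**Figure D1:**
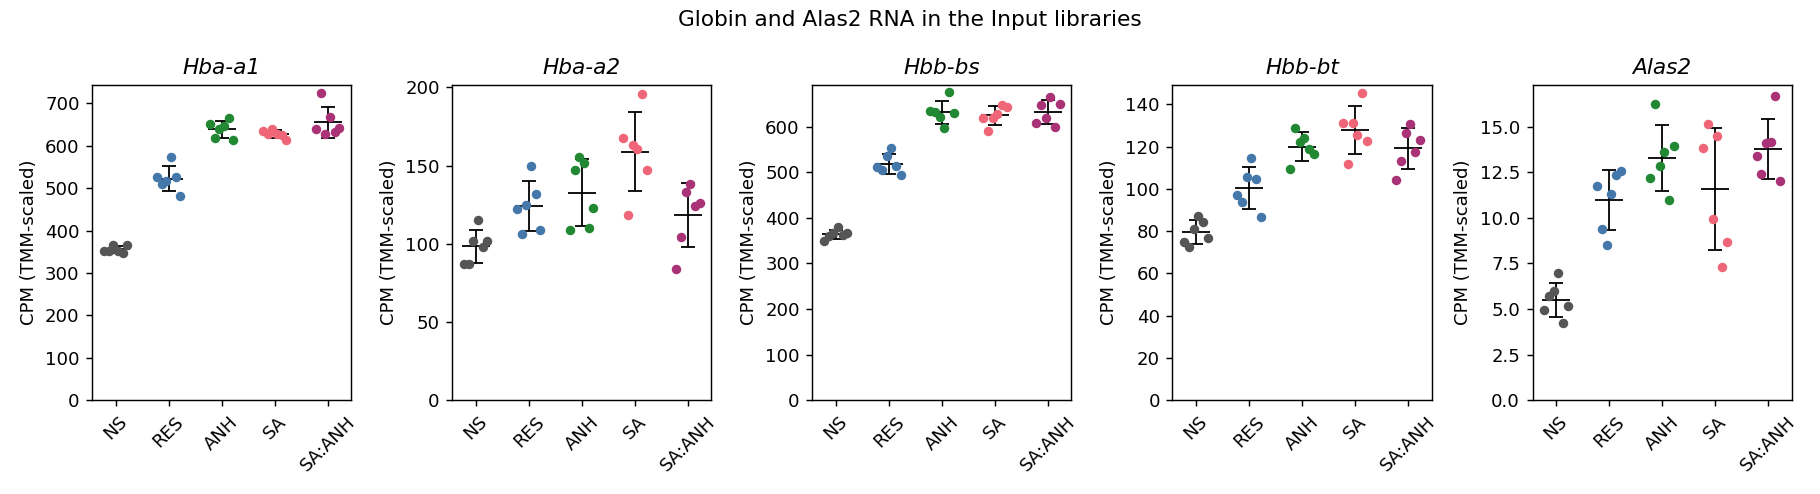
Levels of the 5 members in CPM (vertical axis, linear from 0) in the 30 Input libraries by group. Points are libraries and bars show the mean ± SD of 6 libraries, and the NS points of Hba-a1, Hbb-bs and Alas2 lie below all 24 others.

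Hba-a1, the alpha row with the most counts, was measured at 348 to 367 CPM in NS (median 352), 481 to 573 in RES (median 521), 614 to 639 in SA (median 628), 628 to 725 in SA:ANH (median 640) and 614 to 666 in ANH (median 643). Its levels in NS and RES did not overlap with those of any other group, and SA, SA:ANH and ANH could not be ordered beyond their spread. The log2 difference from NS was 0.55 ± 0.03 (SE) in RES, 0.82 ± 0.03 in SA, 0.85 ± 0.03 in ANH and 0.88 ± 0.03 in SA:ANH. Hba-a2 was less separated: it ran from 86.9 to 115 CPM in NS (median 99.8) and reached 83.6 to 138 in SA:ANH, 106 to 150 in RES, 109 to 156 in ANH and 119 to 196 in SA. SA was the only group in which every Hba-a2 value exceeded the NS range, and its log2 difference was 0.69 ± 0.11, against 0.27 ± 0.11 in SA:ANH.

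Hbb-bs, the beta row with the most counts, ran from 348 to 379 CPM in NS (median 365), 493 to 552 in RES (median 512), 591 to 648 in SA (median 624), 598 to 675 in ANH (median 631) and 600 to 664 in SA:ANH (median 633). The order of its groups and the gaps between them were those of Hba-a1 up to the SA group. Its log2 difference from NS was 0.51 ± 0.03 in RES and between 0.78 ± 0.03 (SA) and 0.79 ± 0.03 (SA:ANH and ANH) in the others. Hbb-bt ran from 72.4 to 86.9 CPM in NS (median 78.9), 86.8 to 115 in RES, 104 to 131 in SA:ANH, 109 to 129 in ANH and 112 to 146 in SA. One RES library fell within the NS range of Hbb-bt, and the log2 differences were smaller than for Hbb-bs, from 0.34 ± 0.06 in RES to 0.69 ± 0.06 in SA.

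Alas2 had the lowest counts and the greatest fold difference of the 5 in Input. It was measured at 4.23 to 6.96 CPM in NS (median 5.41, 103 to 155 counts per library), 8.48 to 12.5 in RES (median 11.5), 7.31 to 15.2 in SA (median 11.9), 10.96 to 16.3 in ANH (median 13.2) and 12.02 to 16.7 in SA:ANH (median 13.7). Every library outside NS lay above the NS range, and the other 4 groups overlapped their neighbours. The log2 difference from NS was 0.999 ± 0.155 in RES, 1.08 ± 0.15 in SA, 1.28 ± 0.15 in ANH and 1.33 ± 0.16 in SA:ANH. SA was the most variable group, with a coefficient of variation of 28.8% against 11.98% to 17.3% in the others.

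Over all members, the groups did not overlap with NS for 5 of 5 genes in SA, where 1.1% of all genes tested had higher levels with no overlap, and for 4 of 5 in SA:ANH, where 1.18% did. The corresponding numbers were 4 of 5 beside 1.3% of genes in ANH and 3 of 5 beside 1.55% in RES. These counts are given without reading, because the genes were chosen on these comparisons. The 4 comparisons share the 6 NS libraries.

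Per kilobase of the table's gene length, the mean Input level over 30 libraries was 882 ± 172 (SD) CPM per kb for Hbb-bs and 801 ± 166 for Hba-a1. It was 228 ± 48.8 for Hba-a2, 156 ± 27.9 for Hbb-bt and 5.41 ± 1.74 for Alas2, where each SD includes the differences between groups. The balance of alpha and beta counts was steady: the beta pair had 0.968 ± 0.0315 counts per alpha count (SD, n = 30, range 0.904 to 1.02), with group means from 0.957 in SA to 0.977 in NS. Hbb-bt took 16.6 ± 1.15% of the beta counts. Hba-a2 took 18.7 ± 3.04% of the alpha counts, with a wider range of 11.6% to 24.6%, and its share was lowest in SA:ANH at 15.3 ± 2.53% (n = 6) and highest in NS at 21.6 ± 1.77%. Alas2 had 6.10 ± 0.947 counts per 1000 globin counts in NS, and group means from 7.56 ± 2.35 (SA) to 9.07 ± 1.296 (SA:ANH) elsewhere, so its ratio to globin ran higher outside NS with overlap between libraries.

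In IP the globins were present at a small fraction of their Input level, and their sum was highest in SA and SA:ANH. The globin sum ran from 14.4 to 23.2 CPM in NS (median 18.02), 23.1 to 27.2 in ANH (median 25.6), 21.5 to 34.5 in RES (median 29.6), 38.2 to 50.4 in SA (median 43.4) and 41.6 to 51.6 in SA:ANH (median 46.5). SA and SA:ANH overlapped each other and lay above every library of the other 3 groups, which overlapped in order. The mean was 1.38 times that of NS in ANH, 1.57 times in RES, 2.36 times in SA and 2.55 times in SA:ANH. ANH, which was among the higher groups in Input, was the group nearest to NS in IP.

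**Figure D2:**
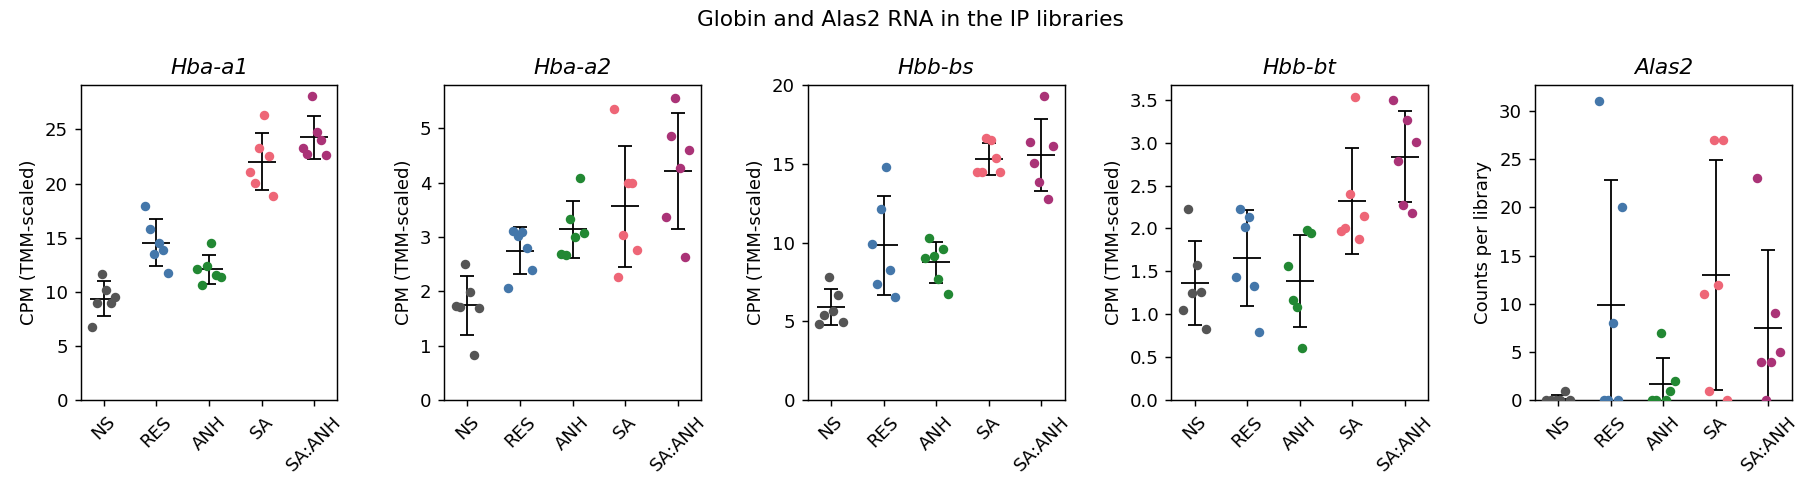
Levels of the 4 globins in CPM and of Alas2 in counts per library (vertical axes, linear from 0) in the 30 IP libraries by group. Points are libraries and bars show the mean ± SD of 6 libraries, Hba-a1 and Hbb-bs are higher in SA and SA:ANH than in every NS library, and 13 of 30 libraries have 0 Alas2 counts.

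Hba-a1 in IP ran from 6.78 to 11.7 CPM in NS (median 9.26), 10.7 to 14.5 in ANH (median 11.8), 11.7 to 17.9 in RES (median 14.2), 18.9 to 26.3 in SA (median 21.8) and 22.7 to 28.0 in SA:ANH (median 23.6). Its log2 difference from NS was 0.37 ± 0.12 in ANH, 0.64 ± 0.12 in RES, 1.24 ± 0.12 in SA and 1.38 ± 0.12 in SA:ANH. Hbb-bs ran from 4.84 to 7.83 CPM in NS (median 5.55), 6.75 to 10.3 in ANH (median 9.08), 6.56 to 14.8 in RES (median 9.07), 14.5 to 16.6 in SA (median 14.9) and 12.8 to 19.3 in SA:ANH (median 15.6). For Hbb-bs the ANH and SA ranges were apart, although 1 RES library reached into the SA range, and the log2 difference from NS was 0.57 ± 0.16 in ANH, 0.73 ± 0.16 in RES, 1.37 ± 0.16 in SA and 1.40 ± 0.16 in SA:ANH.

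The minor rows rested on few IP counts. Hba-a2 had 19 to 64 counts per NS library and ran from 0.825 to 2.50 CPM there, against 2.63 to 5.56 CPM in SA:ANH, and its log2 difference was between 0.65 ± 0.24 (RES) and 1.27 ± 0.24 (SA:ANH). Hbb-bt had 16 to 57 counts per NS library, and its ranges overlapped with NS in 4 of 4 comparisons, with log2 differences of 0.02 ± 0.30 in ANH, 0.28 ± 0.30 in RES, 0.76 ± 0.30 in SA and 1.05 ± 0.30 in SA:ANH. Groups did not overlap with NS for 2 of 5 members in SA (5.15% of all genes tested), 3 of 5 in SA:ANH (6.71%), 1 of 5 in ANH (1.94%) and 1 of 5 in RES (1.6%). The members in question were Hba-a1 and Hbb-bs in SA, those and Hba-a2 in SA:ANH, Hba-a2 in ANH and Hba-a1 in RES.

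Alas2 in IP was a matter of single counts. NS held 1 count over 6 libraries, ANH 10, SA:ANH 45, RES 59 and SA 78. Within groups the libraries were uneven: the 6 RES libraries had 31, 0, 0, 8, 0 and 20 counts, the SA libraries 11, 1, 27, 12, 27 and 0, and the ANH libraries 0, 0, 7, 0, 1 and 2. Each group held at least 1 library at 0. By total counts RES stood above SA:ANH, unlike for the globins, but most RES counts came from the libraries with 31 and 20. By median RES was below SA:ANH, at 0.182 against 0.204 CPM. With 1 count in NS, no fold is given.

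Markers of other cell types and mitochondrially encoded transcripts were set beside the globins in IP. The 15 mitochondrially encoded genes, which lie outside cytosolic ribosomes, had a median log2 difference from NS of 1.08 in SA, 0.54 in SA:ANH, 0.39 in RES and 0.19 in ANH. In the edgeR test (quasi-likelihood, Benjamini-Hochberg adjusted p) 13 of 15 rose in SA, where 16.6% of all genes were called, 11 in SA:ANH (19.7%), 3 in ANH (7.4%) and 2 in RES (4.36%). Of the 12 excitatory neuron markers, 6 fell and 1 rose in SA, 5 fell and 2 rose in SA:ANH, 3 fell and 2 rose in ANH, and 5 fell and 1 rose in RES. Among the mitochondrially encoded genes mt-Co1, a subunit of cytochrome oxidase, was higher by 1.11 ± 0.11 in SA (adjusted p = 4.89e-09). The median of all genes lay between -0.001 and 0.016 in the 4 comparisons. The summed level of the 20 endothelial markers was 98.1 to 122 CPM in NS, 117 to 132 in SA and 101 to 126 in SA:ANH, and in ANH and RES it ran from 89.4 to 117. By edgeR 3 of 15 tested endothelial markers (Egfl7, Tek and Ly6c1) rose in SA and 0 passed in the other 3 comparisons, where 3 (SA:ANH), 0 (ANH) and 2 (RES) had an unadjusted p under 0.05 and DESeq2 called 0. In SA, DESeq2 called 4, with Flt1 and Itm2a in place of Tek, for which it gave no adjusted p. Unlike the others, Itm2a was lower in SA, at 4.19 CPM against 6.42 in NS. Egfl7 made up most of this sum, at 64.5 CPM in NS and 78.2 in SA, and it was the 1 endothelial marker that did not differ between IP and Input (0.01 ± 0.03, edgeR adjusted p = 0.672). Without Egfl7, left out after its values were seen, the sum was 35.1 to 48.9 CPM in NS, 39.1 to 55.6 in SA and 42.4 to 54.3 in SA:ANH, with overlap. The microglia and macrophage sum was 32.7 to 47.4 CPM in NS, 39.8 to 43.1 in SA and 34.0 to 40.5 in SA:ANH, and 1 of 13 tested markers, Aif1, rose in SA and in SA:ANH. In SA:ANH, where the globins were highest, both the endothelial and the microglia sums overlapped with NS. The part of the mitochondrial and marker shifts in the globin values was not tested.

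The pulldown reduced the globins to near the medians of mitochondrially encoded genes and of microglia markers, less far than the latter, and further than the medians of vessel markers. Over the 5 groups, the log2 difference of IP minus Input was -5.11 ± 0.03 (SE) for Hba-a1, -5.36 ± 0.07 for Hba-a2, -5.67 ± 0.04 for Hbb-bs and -5.83 ± 0.07 for Hbb-bt. Alas2 had 193 counts over the 30 IP libraries, against 7843 in Input. The median of the 18 microglia and macrophage markers was -5.95, that of the mitochondrially encoded genes -5.17, of the 20 endothelial markers -4.78, of the 9 tested choroid plexus and meningeal markers -4.37, of the 12 tested white cell and platelet markers -4.32 and of the 14 mural markers, which mark pericytes and vascular smooth muscle, -4.29. The 12 excitatory neuron markers had a median of 0.60 and all 18937 genes a median of -0.08. In this comparison 75.4% of all genes were called in either direction.

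**Figure D3:**
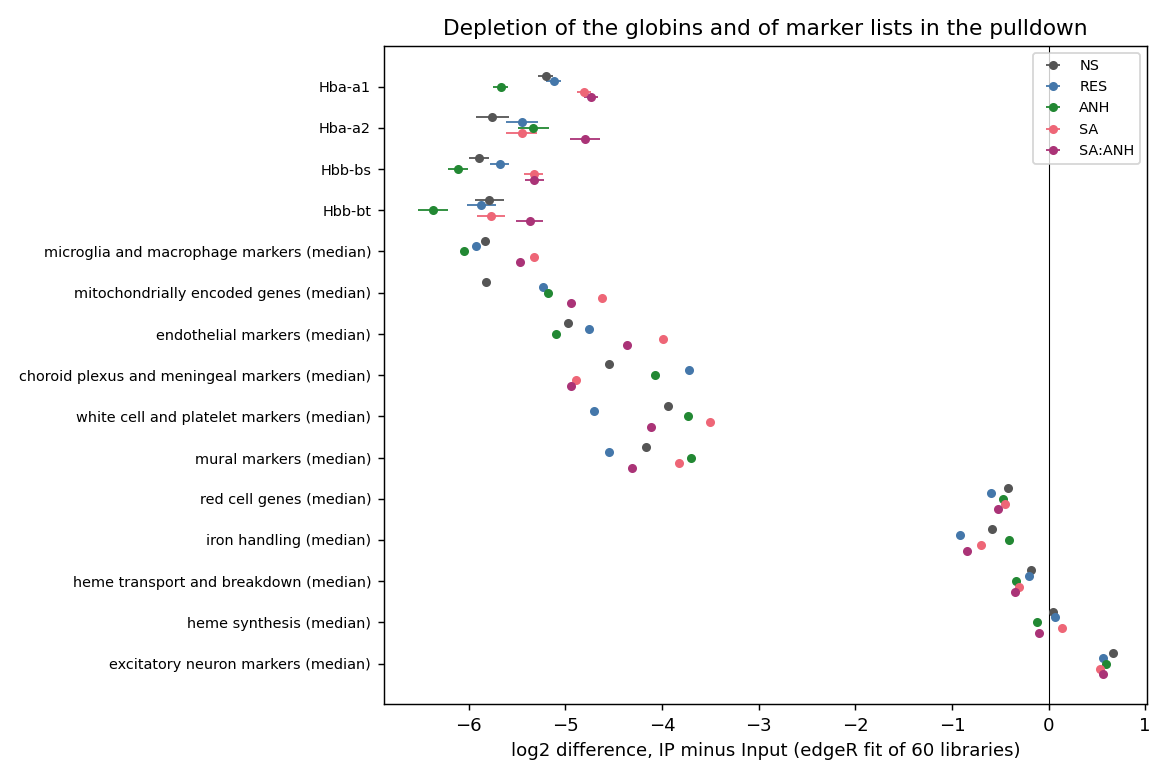
The horizontal axis gives the log2 difference of IP minus Input, by group (colour), for each globin with its SE and for the median of each marker list. The 4 globins lie between -6.37 and -4.74 in every group, near the microglia and mitochondrially encoded medians and far from the heme synthesis and neuron medians.

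How far the globins were reduced varied with the group. Hba-a1 was at -5.67 ± 0.08 in ANH, -5.20 ± 0.08 in NS, -5.12 ± 0.08 in RES, -4.81 ± 0.07 in SA and -4.74 ± 0.07 in SA:ANH. Hbb-bs took the same order, from -6.12 ± 0.10 in ANH to -5.32 ± 0.10 in SA:ANH. The minor rows did not: Hba-a2 was at -5.76 ± 0.17 in NS, -5.45 ± 0.16 in SA and in RES, -5.33 ± 0.16 in ANH and -4.80 ± 0.16 in SA:ANH, and Hbb-bt was at -6.37 ± 0.15 in ANH, -5.87 ± 0.15 in RES, -5.79 ± 0.15 in NS, -5.77 ± 0.14 in SA and -5.37 ± 0.14 in SA:ANH. SA:ANH had the least reduced value for 4 of 4 globins, close to SA for Hba-a1 and Hbb-bs, and ANH the most reduced for 3. The marker lists differed among themselves. The medians of microglia markers ran lowest in ANH, at -6.06, and highest in SA, at -5.33, and those of endothelial markers ran from -5.10 in ANH to -3.99 in SA. Mural markers were least reduced in ANH, at -3.70, and most in RES, at -4.55, choroid plexus and meningeal markers were at -4.07 in ANH and -4.89 in SA, and the mitochondrially encoded genes were lowest in NS, at -5.82. The balance of alpha and beta counts differed between the fractions: the beta pair had 0.669 ± 0.120 counts per alpha count in IP (n = 30, range 0.473 to 0.961) against 0.968 in Input, and the ranges overlapped at their ends.

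The other genes of heme synthesis, unlike Alas2, were open to a test, and none passed in Input. Of the 8 genes tested, 0 passed edgeR's adjusted threshold of 0.05 in any of the 4 Input comparisons, in which 2.83% (SA), 5.65% (SA:ANH), 2.62% (ANH) and 3.23% (RES) of all genes were called. At an unadjusted p under 0.05 the numbers were 0 in SA, 2 in SA:ANH (Alas1 among them), 1 in ANH (Cpox) and 2 in RES (Urod among them), and DESeq2 called 1, Urod in RES. Alas1, the housekeeping form of the enzyme, was at 118 CPM in NS and between 111 (SA) and 128 (SA:ANH) elsewhere, and its log2 differences ran from -0.09 ± 0.05 to 0.11 ± 0.05. Urod, which makes coproporphyrinogen, came nearest in RES at 0.15 ± 0.05 (adjusted p = 0.0661). Fech, which inserts iron into the ring, was at -0.13 ± 0.07 in SA (adjusted p = 0.444). The list medians were between -0.005 (SA) and 0.097 (SA:ANH) in Input, beside medians of all genes from -0.002 to 0.007.

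In IP 1 of 8 heme synthesis genes was lower in SA, in SA:ANH and in ANH, and 0 of 8 passed in RES by edgeR or DESeq2 (2 at an unadjusted p under 0.05). These counts stand beside 16.6%, 19.7%, 7.4% and 4.36% of all genes called in either direction. Fech fell in SA by 0.32 on the log2 scale (SE 0.08, edgeR adjusted p = 0.00296), with 66.6 CPM against 82.9 in NS and no overlap, and in SA:ANH by 0.24 (SE 0.08, adjusted p = 0.0201). Urod fell in ANH by 0.22 (SE 0.07, adjusted p = 0.0373), a call that was lost under 2 of 5 alternatives (adjusted p between 0.0163 and 0.0821). No other heme synthesis gene passed in IP: Ppox was at 0.34 ± 0.14 in SA (adjusted p = 0.102), and Alad at 0.12 ± 0.05 in SA:ANH (adjusted p = 0.0985). Between fractions, 4 of 8 were higher in IP and 4 lower, with values of 0.40 ± 0.03 for Cpox, 0.35 ± 0.02 for Alad and 0.14 ± 0.04 for Uros among the former, and -0.23 ± 0.06 for Ppox, -0.21 ± 0.02 for Alas1, -0.15 ± 0.02 for Urod and -0.13 ± 0.03 for Fech. With the NS libraries alone, Urod and Fech were at 0.01 and the differences of Uros and Ppox did not pass, and Uros also missed the threshold with RLE factors and DESeq2.

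**Figure D4:**
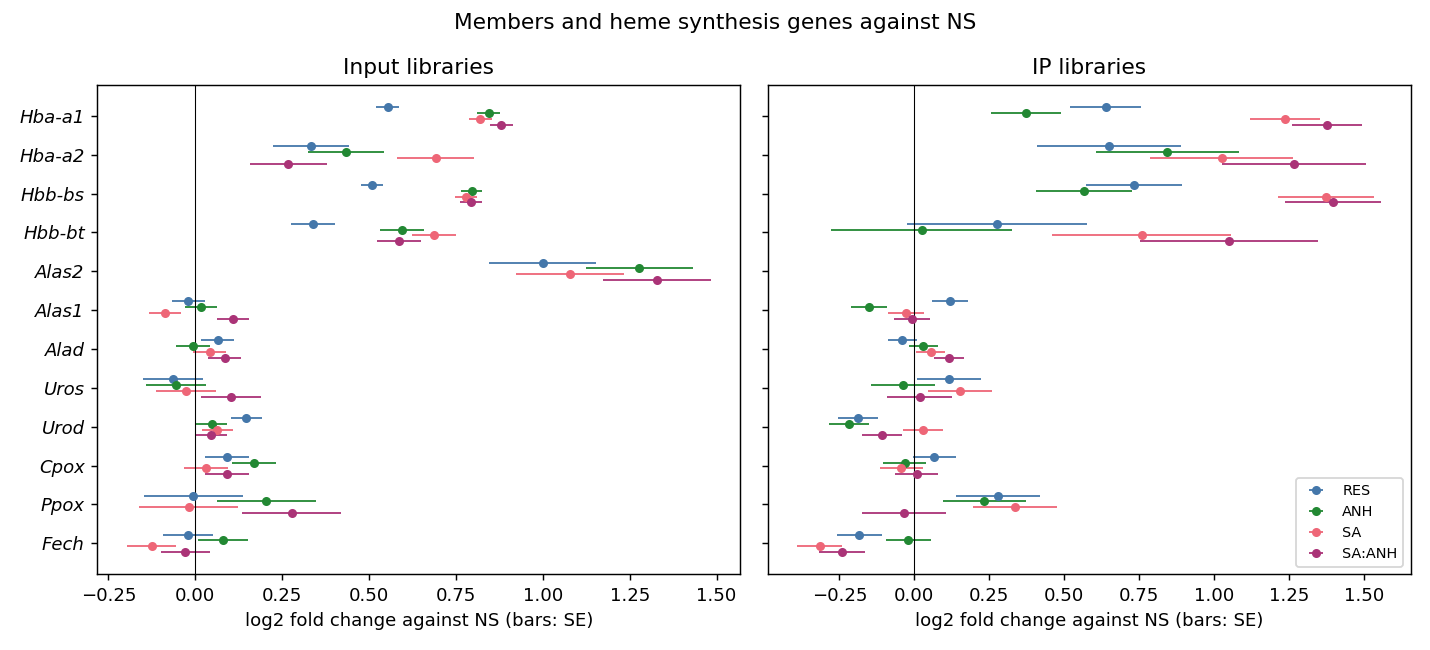
The horizontal axis gives the log2 fold change against NS with its SE for each member and the heme synthesis genes shown in Input (left) and IP (right), by group (colour). In Input the members lie at 0.27 or above and the heme synthesis genes shown between -0.13 and 0.28, and Alas2 is not drawn for IP.

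Among 20 genes of heme transport and breakdown, 1 was lower in each Input comparison: Hp, which encodes haptoglobin, the plasma protein that binds free hemoglobin. It had 49 to 82 counts in each of the 6 NS Input libraries and 0 to 16 in each of the other 24. The ratio to NS was 0.0358 in SA (95% exact interval 0.0199 to 0.0598), 0.0260 in SA:ANH (0.0124 to 0.0483), 0.0308 in RES (0.0162 to 0.0532) and 0.0677 in ANH (0.0444 to 0.0995), with edgeR adjusted p = 0.00282, 0.0017, 0.00254 and 0.0135. These intervals cover the counting error of counts pooled over a group's libraries and not the spread between libraries. In SA, 14 of the 15 pooled counts came from 1 library. DESeq2 gave an adjusted p for Hp in SA:ANH only (0.00569), and in this list it called Pgrmc1 in SA, Hmox2, Pgrmc1 and Slc48a1 in RES and 0 genes in ANH. Hp stood low in the groups where globin RNA stood high. In IP, Hp had 13 counts in 30 libraries. Other genes of this list that passed in IP were Pgrmc1, a heme-binding membrane protein, higher by 0.23 ± 0.05 in SA (adjusted p = 0.000315) and 0.19 ± 0.05 in ANH (adjusted p = 0.00687), and in ANH Tmem14c, a mitochondrial porphyrin transporter, at -0.24 ± 0.06, and Blvra, biliverdin reductase A, at -0.40 ± 0.11 (adjusted p = 0.00944 and 0.0203). Hmox2 and Blvrb, at 0.18 ± 0.06 and 0.37 ± 0.13 in SA, passed at adjusted p = 0.0435 and 0.0441 and lost the call under 4 of 5 alternatives each (adjusted p between 0.0448 and 0.117). Hmox1, a heme oxygenase, was lower in SA in IP at -0.95 ± 0.345 and just missed the threshold by edgeR (adjusted p = 0.0545). DESeq2 called it there, beside Pgrmc1, Hmox2 and Blvrb.

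Of 17 iron handling genes, Trf, which encodes transferrin and is made in brain mainly by oligodendrocytes, rose in each Input comparison. It ran from 248 to 280 CPM in NS, 290 to 309 in SA:ANH, 283 to 326 in SA, 376 to 411 in RES and 409 to 470 in ANH, with log2 differences of 0.16 ± 0.04, 0.22 ± 0.04, 0.58 ± 0.04 and 0.72 ± 0.04 (edgeR adjusted p = 0.00401, 0.000107, 7.31e-15 and 7.47e-18). Its order was not that of the globins, since RES was above SA. In IP, Trf fell in SA by 2.26 and in SA:ANH by 1.58 on the log2 scale (SE 0.25 and 0.23, adjusted p = 1.62e-08 and 3.27e-06) and rose in ANH by 1.94 ± 0.21 and in RES by 2.77 ± 0.22 (adjusted p = 6.61e-08 and 2.58e-11). In SA and SA:ANH the IP levels of Trf and of the globins lay on opposite sides of NS. Fth1, the ferritin heavy chain, rose slightly in Input in SA and RES, by 0.12 ± 0.02 in each (adjusted p = 0.000136 and 6.38e-05), and in IP it was at -0.15 ± 0.03 in SA (adjusted p = 6.13e-05) and 0.08 ± 0.03 in SA:ANH (adjusted p = 0.0346, lost under 4 of 5 alternatives). Iscu, the scaffold for iron-sulfur clusters, rose in IP by 0.38 ± 0.04 in SA and 0.25 ± 0.04 in SA:ANH (adjusted p = 2.62e-08 and 3.74e-05). Ftl1, the ferritin light chain, rose in SA:ANH by 0.20 ± 0.04 (adjusted p = 0.00108), as did Glrx5 by 0.20 ± 0.05 (adjusted p = 0.00435), and Ftl1 was lower in ANH by 0.15 on the log2 scale (value -0.15 ± 0.04, adjusted p = 0.0282, lost under 1 of 5 alternatives).

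Transcripts of other red cell proteins were scarce. Of 25 listed red cell genes in the table, 11 had 0 counts in all 30 IP libraries, which allows a level of up to 0.00433 CPM over the fraction, and 2 (Epb42 and Cldn13) had 0 counts in all 30 Input libraries. Slc4a1, the band 3 anion exchanger and a leading membrane protein of red cells, had 73 counts in the 30 Input libraries together, against 393437 counts for Hbb-bs. Only 8 of the 25 were tested in Input and 5 in IP, led by genes that neurons also express such as Sptb, Epor and Bpgm. In Input 0 of 8 passed in any comparison with NS by edgeR or DESeq2, and at an unadjusted p under 0.05 there was 1 each in SA (Aqp1) and ANH (Epor). The list sum was 118 to 130 CPM in NS against 109 to 140 in the other groups. The most abundant, Bpgm, an enzyme of 2,3-bisphosphoglycerate synthesis, was at 70.8 CPM in NS and 73.2 in SA (0.05 ± 0.06, adjusted p = 0.821), and Sptb at 32.9 and 29.3 (-0.16 ± 0.10, adjusted p = 0.518). In IP, Sptb, the erythroid form of beta spectrin, was lower in SA at -0.56 ± 0.15 and in RES at -0.51 ± 0.15 (edgeR adjusted p = 0.00613 and 0.0374), and Epor at -0.45 ± 0.15 in SA (adjusted p = 0.0368, lost under 1 of 5 alternatives).

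The white cell and platelet list gave 0 of 13 calls by edgeR in each Input comparison. At an unadjusted p under 0.05 there were 4 in SA, 5 in SA:ANH, 1 in ANH and 4 in RES, and DESeq2 called 1, Ighm in SA:ANH. The list's sum was 81.6 to 99.0 CPM in NS and 87.6 to 109 in the other 4 groups, with overlap. Its most abundant genes were Trbc2, the annotated constant region of a T cell receptor, at 66.5 CPM in NS and 72.1 in SA (0.12 ± 0.06, adjusted p = 0.319), and Ighm, the heavy chain of immunoglobulin M, at 14.9 and 18.8 (0.34 ± 0.12, adjusted p = 0.146). Trbc2 had 49900 counts over the Input libraries, against 12216 for Ighm. The list's sum therefore mostly followed Trbc2 and says little about other blood cells. Ppbp, made by platelets, was at 0.91 CPM in NS and 0.68 in SA (log2 difference -0.42 ± 0.46, adjusted p = 0.774), and S100a9, made by neutrophils, at 0.25 and 0.64 (1.32 ± 0.63, adjusted p = 0.327). Ppbp and S100a9 had at most 36 and 25 counts in a library, which limits what could be seen. In IP 1 of 5 tested genes, Trbc2, was called in 3 of 4 comparisons, and it rose in SA by 0.47 ± 0.08, in ANH by 0.50 ± 0.08 and in SA:ANH by 1.35 ± 0.08 (adjusted p = 1.85e-05, 2.55e-05 and 2.72e-15), while the other T cell genes Cd3e, Cd3d and Cd3g had 0, 1 and 0 counts over the 30 IP libraries. Of the 20 endothelial markers in Input, Ly6c1 and the glucose transporter Slc2a1 rose in SA:ANH (0.24 ± 0.06 and 0.21 ± 0.05, adjusted p = 0.00861 and 0.0199), Slc2a1 rose in RES (0.21 ± 0.05, adjusted p = 0.0216), and 0 passed in SA or ANH (4 and 3 at an unadjusted p under 0.05, and 1 each by DESeq2, Pecam1 and Ly6a). Of the 18 microglia and macrophage markers, 1 rose and 4 fell in SA, 2 fell in SA:ANH, 1 rose and 1 fell in ANH, and 2 fell in RES. Lyz2, a lysozyme of macrophages, was among the lower genes in 4 of 4 comparisons, at -0.92 ± 0.12 in SA and -0.71 ± 0.12 in ANH (adjusted p = 3.41e-06 and 0.000241). The choroid plexus and meningeal sum in Input was 67.1 to 77.6 CPM in NS and 60.3 to 69.6 in ANH. It lay below NS without overlap in SA (55.2 to 65.0), SA:ANH (57.3 to 64.9) and RES (42.8 to 57.6). Of the 15 mitochondrially encoded genes, 0 fell in SA, 9 in SA:ANH, 1 in ANH and 8 in RES, and 0 rose. In SA:ANH and RES 5.65% and 3.23% of all genes were called.

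Other globins gave a further contrast. The embryonic genes Hbb-y, Hbb-bh1 and Hba-x had 9, 50 and 5 counts over the 30 Input libraries. Ngb, neuroglobin, which neurons express, rose in IP in 4 of 4 comparisons, by 0.43 ± 0.12 in ANH, 0.51 ± 0.12 in SA, 0.57 ± 0.12 in RES and 0.69 ± 0.12 in SA:ANH (edgeR adjusted p = 0.0174, 0.00185, 0.00191 and 2.61e-05). In Input Ngb was at -0.16 ± 0.12 in SA (adjusted p = 0.611), and 0 of 4 tested genes of this list passed in any Input comparison by edgeR or DESeq2, with 1, Ngb in ANH, at an unadjusted p under 0.05. Cygb, cytoglobin, rose in IP in ANH by 0.20 ± 0.05 (adjusted p = 0.0139). Between fractions Ngb was higher in IP by 0.83 ± 0.05 (adjusted p = 2.64e-21; 0.28 and adjusted p = 0.0554 with the NS libraries alone), and Cygb was at 0.07 ± 0.02 (adjusted p = 0.00314, lost under 3 of 5 alternatives).

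Within groups, the deviations of libraries from their group mean were not part of how the genes were chosen, and 14 relations among them were tested. In Input the alpha and beta pairs deviated together: Pearson's r was 0.691 and Spearman's rho 0.634 over 30 libraries with group means removed (two-sided permutation p = 0.00032 and 0.00097 from 100000 permutations within groups, adjusted p = 0.00448 and 0.0136). Without the 2 libraries farthest from the median, r was 0.562. Both sums share the library and its scaling, and an effect shared by libraries of equal number was not removed. In IP the same relation had r = 0.284 and rho = 0.179 (permutation p = 0.171 and 0.379, adjusted p = 0.478 and 0.663).

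**Figure D5:**
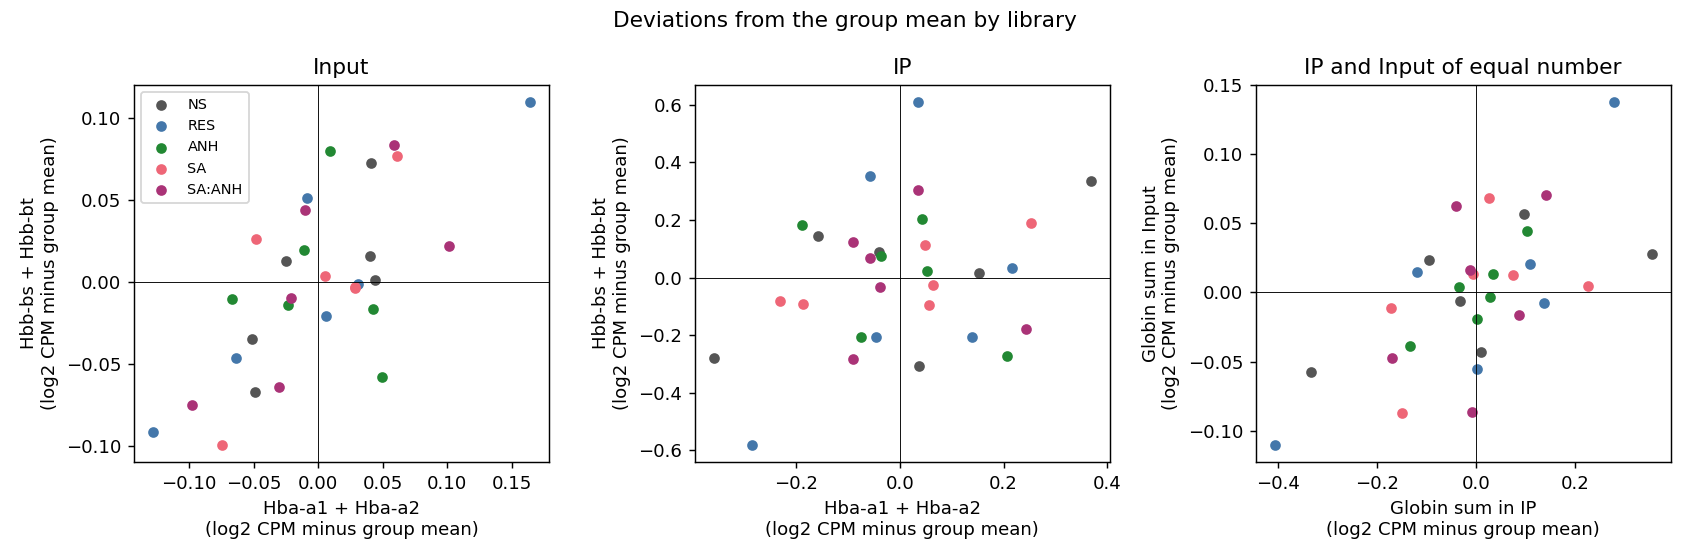
Each point is a library or a pair of libraries, and the axes give log2 CPM minus the group mean: alpha against beta globins in Input (left) and IP (middle), and the globin sum in IP against Input of the same group and number (right). Points rise together on the left (r = 0.691) and on the right (r = 0.645), and less so in the middle (r = 0.284).

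IP and Input libraries of the same group and number deviated together for the globin sum, with r = 0.645 and rho = 0.563 over 30 pairs (permutation p = 0.00107 and 0.00438, adjusted p = 0.00749 and 0.0307), and r was 0.590 without the 2 farthest pairs. The labels do not say that an equal number marks 1 animal. Across the genes with higher mean levels in both fractions, 10 of 30 such pairs correlated above 0.1, against 14 of 150 pairs of the same group with different numbers. Alas2 gave r = 0.029 and rho = 0.079 for the same pairs (permutation p = 0.898 and 0.708, adjusted p = 0.967 and 0.826).

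No relation between Alas2 and the globins from library to library passed the test. In Input, r between the globin sum and Alas2 was -0.216 and rho -0.180 (permutation p = 0.278 and 0.367, adjusted p = 0.65 and 0.663). The globin sum in Input also showed no relation past the threshold with the mitochondrially encoded share (r = 0.136, rho = 0.217, permutation p = 0.485 and 0.283), the endothelial sum (r = -0.203, rho = -0.294, permutation p = 0.326 and 0.158) or the sum of red cell genes (r = -0.006, rho = 0.026, permutation p = 0.975 and 0.894), with adjusted p of at least 0.552. With the white cell and platelet sum r was 0.409 and rho 0.437 (permutation p = 0.0193 and 0.0192, adjusted p = 0.09 and 0.0898), and r = 0.355 without the 2 farthest libraries. This relation passed when libraries were scaled by their totals alone (r = 0.474, permutation test, adjusted p = 0.0247). In IP the corresponding r values with Alas2, the mitochondrially encoded share and the endothelial, red cell and white cell sums lay between -0.111 and 0.258, with permutation adjusted p from 0.477 to 0.92. The red cell sum was mostly Bpgm and Sptb, which neurons also express, and the white cell and platelet sum mostly Trbc2. Relations with these 2 sums therefore say little about blood cells.

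The genes whose deviations were most like those of the globin sum were of other kinds. Among 10897 genes with a mean of at least 5 CPM in Input, these were Rplp2 (r = 0.841), a ribosomal stalk protein, Cox6b1 (r = 0.839) and Ndufa11 (r = 0.839), which belong to cytochrome oxidase and complex I, Bbln (r = 0.835) and Atp5e (r = 0.827), a subunit of ATP synthase. Their gene lengths in the table were 964, 618, 918, 2618 and 1697 bases, against a median of 3486 for the genes ranked and 554 to 703 for the 4 globins. In IP, among 10129 genes, they were Rer1 (r = 0.769), Eif2b1 (r = 0.764), Ndufb7 (r = 0.747), Psma7 (r = 0.739) and Ndufs8 (r = 0.694), with lengths of 1005 to 4435 bases and a median of 3522 for the genes ranked. These r values describe 30 libraries in each fraction, were picked as the highest among all genes, and carry no test. All points share library preparation and depth.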

How the data were processed

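The authors deposited 1 table of expected counts (estimated reads per gene, some fractional) with 55414 genes and 60 libraries; the unit was read from the values, of which 88.4% were whole within 0.000001. Per the labels' protocols, SMART-Seq v4 and TruSeq v2 kits served for library preparation, and reads were pairs of 100 bases. Reads without molecular identifiers are not independent molecules, so intervals and floors (3 counts) cover counting error only. Bowtie2 2.2.3, TopHat2 2.0.13, Trimmomatic 0.32 and mm10 are listed, per the submitters' processing notes. The counter, its use of strand and its handling of multi-mapping reads were not given in the sources used here.

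The members and gene lists were chosen with earlier results of these data known. Counts were rounded and tested with edgeR 4.0.16 in R 4.3.3 (quasi-likelihood test, TMM, filterByExpr with a minimum count of 10, Benjamini-Hochberg at 0.05), with the 30 libraries of a fraction fitted together (16670 genes in IP, 18170 in Input) and all 60 for IP against Input (18937 genes). The test script was checked on simulated data. Members received log2 differences and standard errors only. CPM used the TMM factors of a fraction, and log CPM a prior count of 2. Relations were tested by permutation within groups. Alternatives were RLE factors, DESeq2 1.42.0, no filter, other sets of libraries, a replicate block and other priors.

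Named genes were all members and heme synthesis genes (not all of the latter are reported here) and, per list and comparison, up to 4 that passed with the smallest p, or the 2 with the highest level where none passed; Slc4a1, Epb42, Cldn13, Ppbp, S100a9, the Cd3 genes, the embryonic globins, Egfl7, Flt1, Itm2a, Slc48a1 and the genes named at an unadjusted p or by DESeq2 were named outside that rule, after their values were seen. No label states that libraries came from separate animals, so p-values measure the spread between these libraries. Gene positions in the table are not those of GRCm38, the assembly behind mm10. Promoter windows came from RefSeq and coding sequences from GENCODE M21, both on GRCm38. No value column was left unmatched (0).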

Additional observations from a re-analysis of the deposited data

Results flagged for a closer look

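In 3 of 60 sets of 6 libraries (5 members and the globin sum in 10 groups), 1 library lay far from the others, and chance alone gives about 1 such set in 20, the same share. They were the SA IP library with 3.53 CPM of Hbb-bt (next 2.40), the ANH IP library with 0.281 CPM of Alas2 (next 0.102) and the NS IP library with 0.0434 CPM of Alas2, which is 1 count where the others had 0, so that its gap follows from the single count.

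The value in IP differed from that in Input for 16 flagged differences from NS of the companion genes. The interaction terms of edgeR's quasi-likelihood test over all 60 libraries give the IP difference minus the Input difference on the log2 scale (adjusted p in brackets). For Trf they were -2.51 in SA (3.23e-14), -1.77 in SA:ANH (4.72e-10), 1.22 in ANH (7.4e-07) and 2.195 in RES (9.7e-16). For Ngb they were 0.64 in SA (0.00852), 0.71 in SA:ANH (0.00175), 0.75 in ANH (0.00474) and 0.63 in RES (0.0279). In SA, Pgrmc1 gave 0.35 (0.000179), Fth1 -0.29 (1.48e-09) and Iscu 0.35 (5.34e-07). In SA:ANH, Ftl1 gave 0.15 (0.0317) and Iscu 0.17 (0.011). In ANH, Urod gave -0.26 (0.047) and Cygb 0.32 (0.00473). In RES, Hp gave 6.45 (0.0465), which rests on 10 counts in RES IP and 3 in NS IP. Outside the flagged set, Urod gave -0.34 (0.006) and Pgrmc1 0.26 (0.0179) in RES. In SA:ANH, Slc39a14 gave -0.73 (0.0316) and Slc11a2 -0.46 (0.0491), also outside that set. Of all 18937 genes tested, the term passed adjusted p 0.05 for 1713 in SA, 2880 in SA:ANH, 685 in ANH and 510 in RES.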

How the results depend on the processing

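Each member's difference from NS kept its direction under the alternatives run (RLE factors, no filter, 2 groups only, replicate block, DESeq2), and the 14 relations kept their side of the threshold except 1: r of the globin sum with white cell and platelet genes in Input was 0.474 (permutation test, adjusted p = 0.0247) with library totals only. Heme and iron genes called in RES in IP numbered 2 with only the 2 groups compared and with DESeq2, against 1. With DESeq2, genes called in Input were 808 in SA, 728 in ANH and 902 in RES, against 515, 476 and 587, and heme and iron genes called were 1 in ANH and 6 in RES, against 2 and 3. With the replicate block, heme and iron genes called in RES in Input were 5, and no other count of calls moved by over 1.5 times; among single genes the block ended the calls of Hmox2 and Blvrb in SA in IP and of Hmox2 between fractions. With only the NS libraries, IP against Input gave a median of -5.78 for the 4 globins against -5.51, 9325 genes called against 14280, 26 heme and iron genes called against 43, and values of 0.0072 for Urod and 0.0068 for Fech, opposite in sign to -0.15 and -0.13; fewer libraries entered that fit. No label ties equal replicate numbers to 1 animal or batch. Of 60 pairs of libraries with the same number in 2 groups, 18 correlated above 0.1 in IP and 20 in Input (deviations from group means, genes with higher mean levels). Of 300 pairs with different numbers, 30 and 36 did, so equal numbers correlated more often but not in every pair. The main fits did not treat the libraries as paired, and the replicate block was run as an alternative. The 14 relations had only group means removed, so their permutation p-values do not separate an effect shared by libraries of equal number. The cause of the other shifts was not tested. Depth limits Alas2 and red cell genes in IP, where a level under 0.00433 CPM over the fraction cannot be told from 0.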

Other observations

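Most embryonic globin counts sat in 1 library. NS Input replicate 4 held 40 of the 50 Hbb-bh1 counts of the 30 Input libraries and all 5 Hba-x counts, together with 17 of 73 counts of Slc4a1, and each other Input library had 0 to 2 counts of Hbb-bh1. It had 0 of the 9 Hbb-y counts, of which no library held more than 2. That library also had the highest globin sum (933 CPM) and the highest Alas2 level (6.96 CPM) of the NS Input group. Without it the NS Input mean was 891 ± 23.8 CPM (SD, n = 5) for the globin sum, against 898 with it, and 5.20 ± 0.691 CPM for Alas2, against 5.49, so the gap between NS and the other groups was slightly wider. These values were picked out after they were seen.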
